A study of Mus musculus with 72 samples.

Results

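The period genes Per1, Per2 and Per3 and the cryptochrome genes Cry1 and Cry2 were followed in mouse liver and suprachiasmatic nucleus (SCN) by RNA-seq. They were chosen by symbol and are 5 of the 22823 genes in the liver count table and of the 15759 genes in the SCN count table. All 5 were found once in each table and passed the filter on low counts in both. The study asked how a diet that lacks methionine and choline (MCD) alters the circadian transcriptome of the 2 tissues.

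Libraries came from C57BL/6J mice, 8 to 12 weeks old per the protocol, given free access to the MCD diet or to its isocaloric control for 11 days. The mice were housed singly in 12 h of light and 12 h of dark for 10 days and then kept in constant darkness on the 11th day. They were killed at 6 circadian times (CT) spaced 4 h apart, from CT0 to CT20, where CT0 is the time at which the lights would have come on. Tissue, diet and time define 24 groups of 3 libraries each, from 2 males and 1 female, which makes 18 libraries for a diet in a tissue and 72 in all. The protocol text mentions male mice only. The sample labels, which name 1 female per group, were followed. Liver RNA came from the left lobe, and the SCN was cut from brain sections by laser microdissection. The labels name no transgene or altered allele in either group.

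The circadian clock is a feedback loop of transcription. CLOCK and BMAL1, a pair of DNA-binding activators, switch on the Per and Cry genes through E-box sequences, and PER and CRY proteins form complexes that enter the nucleus and inhibit the same activators. PER1 and PER2 act as scaffolds of the complex, PER3 binds it in a supporting role, and CRY1 and CRY2 are its main inhibitors. The SCN, in the hypothalamus, receives light from the retina and sets the phase of clocks in the rest of the body, while the liver clock also follows feeding and glucocorticoid hormone, to which Per1 responds directly.

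Liver libraries held 52.6 to 86.7 M gene counts (median 64.4 M) and SCN libraries 23.3 to 79.8 M (median 57.0 M), so the members rested on at least 53 counts in each liver library and 381 in each SCN library. One liver library stood apart from its label. The 2 control males at CT8 share a column name in the count table and are called library a and library b here. In a score built from genes that passed the diet test at the remaining 5 times, set to -1 at the control mean and to 1 at the MCD mean, library a of the control group at CT8 lay at 0.95. The 17 other controls lay between -1.41 and -0.56 and the 18 MCD libraries between 0.22 and 1.66. It was kept as labelled, and the liver calls on rhythm, diet, peak time and tissue differences are also given without it. In liver all 7 hepatocyte markers were detected, with a summed level of 79232 to 118833 CPM on control and 56911 to 122195 CPM on MCD. In SCN all 10 SCN neuron markers were detected, Avp, Vip and Six6 among them, at 2058 to 3694 CPM on control and 2104 to 4662 CPM on MCD. Of the hepatocyte markers Alb alone was listed in SCN, at a mean of 5.76 CPM on control and 4.26 CPM on MCD. Levels are given as CPM, read counts divided by the library total in M, after TMM scaling, which corrects library totals for differences in composition.

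The proximal promoters are shown first, since they hold the short sequences through which clock factors are known to act on these genes. RefSeq promoter windows of build GRCm38.p6 were found for 4 of the 5 members (Per1, Per3, Cry1 and Cry2). The 250 bases before the start site are printed 5′ to 3′ on the strand of the gene, with matches in capitals to any of 5 motifs on either strand. The motifs were the E-box CACGTG, bound by CLOCK and BMAL1, the variant E′-box CACGTT, the D-box TTANGTAA, bound by PAR bZIP factors and NFIL3, the cAMP response element TGACGTCA, and the ROR core AGGTCA, bound by ROR and REV-ERB receptors. No motif overlapped another in these windows.
Per1 (chr11:69098699-69098948, plus strand): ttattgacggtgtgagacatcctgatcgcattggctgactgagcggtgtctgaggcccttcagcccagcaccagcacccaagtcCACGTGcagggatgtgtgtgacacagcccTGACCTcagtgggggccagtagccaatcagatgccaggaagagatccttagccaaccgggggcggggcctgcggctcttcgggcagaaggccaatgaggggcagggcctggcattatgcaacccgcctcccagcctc
Per3 (chr4:151044666-151044915, minus strand): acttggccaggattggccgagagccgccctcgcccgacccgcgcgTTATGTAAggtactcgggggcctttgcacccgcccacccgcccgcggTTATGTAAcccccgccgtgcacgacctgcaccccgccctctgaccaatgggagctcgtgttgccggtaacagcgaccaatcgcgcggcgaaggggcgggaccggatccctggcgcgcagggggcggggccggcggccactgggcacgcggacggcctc
Cry1 (chr10:85185055-85185304, minus strand): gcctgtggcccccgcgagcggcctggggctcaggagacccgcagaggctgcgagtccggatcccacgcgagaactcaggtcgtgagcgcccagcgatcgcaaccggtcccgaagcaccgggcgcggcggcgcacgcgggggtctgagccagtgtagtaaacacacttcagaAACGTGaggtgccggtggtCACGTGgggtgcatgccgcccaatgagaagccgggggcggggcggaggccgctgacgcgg
Cry2 (chr2:92434070-92434319, minus strand): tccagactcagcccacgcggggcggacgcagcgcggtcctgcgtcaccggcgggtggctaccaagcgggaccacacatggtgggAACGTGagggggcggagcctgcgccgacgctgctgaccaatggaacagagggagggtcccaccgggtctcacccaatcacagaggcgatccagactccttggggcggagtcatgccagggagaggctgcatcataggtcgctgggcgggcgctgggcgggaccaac
Positions are those of a motif's first base, with -1 the base before the start site. The Per1 window held an E-box at -166 and a ROR core, read as TGACCT, at -137. A window at another start site of Per1 (chr11:69099902-69100151, plus strand) held none of these letters. The Per3 window held 2 D-boxes, both TTATGTAA, at -205 and -158. The Cry1 window held an E′-box, read as AACGTG, at -79 and an E-box at -60. The Cry2 window held a single E′-box, also read as AACGTG, at -166. Among 32851 promoter windows of this length, 6.02% held an E-box, 3.85% an E′-box, 2.06% a D-box, 1.55% a cAMP response element and 14% a ROR core. These are letter matches only, and binding was not measured.

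In GENCODE M21 (build GRCm38) Per1 lies at chr11:69095217-69109960 on the plus strand. The other 4 lie on minus strands, Per2 at chr1:91415982-91459324, Per3 at chr4:151003652-151044665, Cry1 at chr10:85131700-85185064 and Cry2 at chr2:92403646-92434043. Per3 lies within the bounds of Camta1 on the same strand but shares no exon base with it. Cry2 shares 295 of its 6320 exon bases with D930015M05Rik on the opposite strand, and whether the counting used the strand is not given in the sources used here.

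Per kilobase of exon, the mean level over all 36 libraries of a tissue fell in a different order in the 2 tissues. In liver Per2 was highest at 10.9 ± 7.90 CPM per kb, followed by Cry1 at 8.88 ± 5.94, Cry2 at 6.78 ± 1.97, Per1 at 6.08 ± 4.88 and Per3 at 3.18 ± 2.78 (SD, n = 36). The SDs span the day, and each gap between neighbours was smaller than the larger of their 2 SDs. Per2 exceeded Cry1 in 20 of 36 libraries, Cry1 exceeded Cry2 in 21, Cry2 exceeded Per1 in 24 and Per1 exceeded Per3 in 29. The order pools the diets, and in liver that of Cry2 and Per1 turned between them. On control Cry2 stood at 7.66 and Per1 at 5.05 CPM per kb, and on MCD at 5.90 and 7.11. In SCN Cry1 was highest at 18.7 ± 6.62 CPM per kb, followed by Per1 at 13.6 ± 8.13, Per2 at 13.0 ± 9.93, Cry2 at 10.9 ± 1.55 and Per3 at 3.09 ± 1.17. Cry1 exceeded Per1 in 25 of 36 SCN libraries, Per1 exceeded Per2 in 23, Per2 exceeded Cry2 in 18, and Cry2 exceeded Per3 in all 36, the only gap wider than both SDs. Per3 thus had the lowest level per kb of the 5 in both tissues.

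All 5 genes cycled over 24 h in liver on both diets. The rhythm test asked whether the means of the 6 times held a 24 h cosine wave of any phase (edgeR quasi-likelihood test, Benjamini-Hochberg adjustment over all genes of the tissue, threshold 0.05). It called 5 of 5 members on control, where 17.8% of 20249 genes were called, and 5 of 5 on MCD, where 28.2% were called. Adjusted p values ran from 1.18e-07 for Per3 to 0.00352 for Cry2 on control, and from 2.36e-09 for Cry1 to 4.84e-04 for Cry2 on MCD. Without library a all 5 were again called on both diets. On control Cry2 lost its call with exon-bin sums (adjusted p = 0.0638) and without the libraries of any of the 3 replicate numbers (0.0540 to 0.182, with libraries a and b, which carry no number, kept), and Per2 without those numbered 1 (0.135). On MCD Cry2 lost it without those numbered 1 (0.0910). The fitted log2 range of Cry2 on control, 0.76 with all libraries, was then 0.74 with exon-bin sums and 0.80, 0.66 and 0.81 without the numbers 1, 2 and 3.

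**Figure D1:**
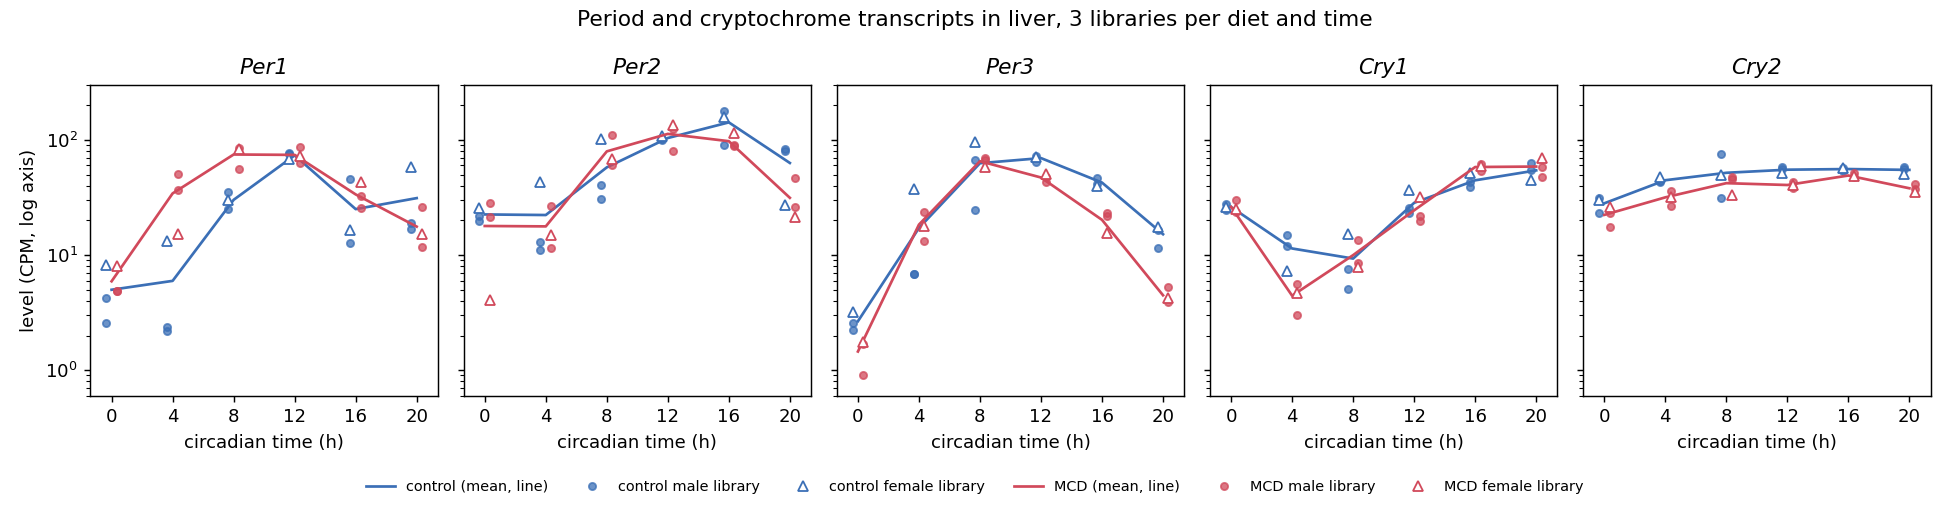
Levels of the 5 genes in liver (CPM, log axis) against circadian time in h, with each library as a point (circles males, triangles females) and group means as lines, control in blue and MCD in red. Per1 at CT4 is below 14 CPM in every control library and at 15 CPM or more in every MCD library.

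Per1, the period gene known to be induced quickly by hormonal and light signals, was lowest in liver at CT0 on both diets. On control it stood at 5.00 ± 2.90, 5.97 ± 6.41, 30.2 ± 5.36, 73.4 ± 4.95, 25.1 ± 18.3 and 31.2 ± 23.0 CPM at CT0, CT4, CT8, CT12, CT16 and CT20 (SD, n = 3 libraries each). On MCD the values at the same times were 5.92 ± 1.82, 34.3 ± 17.9, 74.6 ± 16.4, 74.1 ± 12.1, 33.6 ± 8.59 and 17.7 ± 7.55 CPM. From the highest time to the lowest the order was CT12, CT20, CT8, CT16, CT4 and CT0 on control, where every library at CT12 was above every library at CT20 and no other neighbours were free of overlap, and CT8, CT12, CT4, CT16, CT20 and CT0 on MCD. On MCD the neighbours free of overlap were CT12 over CT4 and CT20 over CT0, written CT12/CT4 and CT20/CT0 from here on. Control libraries at CT16 and CT20 were spread widely, with 1 male at 46.0 CPM at CT16 and the female at 57.8 CPM at CT20, while the others lay between 12.6 and 19.0 CPM.

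Per2, a period gene whose loss alone disturbs behavioural rhythms, was highest at CT16 on control and at CT12 on MCD. Its control levels were 22.5 ± 3.03, 22.3 ± 17.8, 57.7 ± 38.3, 104 ± 3.84, 142 ± 46.3 and 63.0 ± 31.3 CPM at CT0 to CT20. Its MCD levels were 17.9 ± 12.4, 17.7 ± 8.04, 79.5 ± 26.9, 113 ± 29.2, 97.4 ± 14.3 and 31.4 ± 13.3 CPM. The control order was CT16, CT12, CT20, CT8, CT0 and CT4, free of overlap at CT12/CT20 and CT8/CT0, and the MCD order was CT12, CT16, CT8, CT20, CT0 and CT4, free of overlap at CT8/CT20. At CT8 the control female stood at 102 CPM and the males at 30.7 and 40.9 CPM.

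Per3 had the widest daily range of the 5 in liver. On control it stood at 2.66 ± 0.505, 17.2 ± 17.8, 62.7 ± 36.01, 69.5 ± 4.20, 42.6 ± 3.64 and 15.2 ± 3.20 CPM at CT0 to CT20, a ratio of 26.1 between the highest and the lowest mean. On MCD it stood at 1.45 ± 0.470, 18.4 ± 5.31, 65.3 ± 6.13, 47.1 ± 4.09, 20.2 ± 3.99 and 4.47 ± 0.683 CPM, a ratio of 44.9. The control order was CT12, CT8, CT16, CT4, CT20 and CT0, free of overlap at CT16/CT4 and CT20/CT0, and the MCD order was CT8, CT12, CT16, CT4, CT20 and CT0, free of overlap at CT8/CT12, CT12/CT16, CT4/CT20 and CT20/CT0. As for Per2, the control female was above both males at CT4 (37.7 against 6.89 and 6.90 CPM) and at CT8 (96.3 against 24.7 and 67.3 CPM).

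Cry1, the cryptochrome that accumulates late in the cycle and delays it, was highest at CT20 on both diets. Its control levels were 26.1 ± 1.68, 11.4 ± 3.86, 9.32 ± 5.35, 28.4 ± 7.29, 44.6 ± 6.19 and 54.3 ± 8.76 CPM at CT0 to CT20. Its MCD levels were 26.2 ± 3.22, 4.43 ± 1.30, 9.98 ± 3.15, 24.5 ± 6.60, 58.1 ± 4.18 and 58.7 ± 11.2 CPM. The control order was CT20, CT16, CT12, CT0, CT4 and CT8, free of overlap at CT16/CT12 and CT0/CT4, and the MCD order was CT20, CT16, CT0, CT12, CT8 and CT4, free of overlap at CT16/CT0, CT12/CT8 and CT8/CT4.

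Cry2, the second inhibitor, had the smallest daily change of the 5, with ratios between the highest and the lowest mean of 1.98 on control and 2.20 on MCD. Its control levels were 28.1 ± 4.33, 44.6 ± 2.21, 51.8 ± 21.8, 55.1 ± 3.08, 55.8 ± 2.24 and 54.9 ± 3.68 CPM at CT0 to CT20. Its MCD levels were 22.3 ± 4.27, 31.7 ± 4.70, 42.1 ± 7.76, 40.6 ± 2.40, 49.0 ± 1.87 and 38.0 ± 3.01 CPM. On both diets CT0 was free of overlap with CT4, the next lowest time, and all other neighbours in the order overlapped. At CT8 the control males stood at 31.3 CPM in library a and 74.7 CPM in library b, on either side of the female at 49.3 CPM.

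The fitted range, the peak minus the trough of the 24 h component on the log2 scale, was wide in liver for 4 of the 5 genes and narrow for Cry2. On control it was 3.75 ± 0.46 for Per1, 2.97 ± 0.48 for Per2, 4.36 ± 0.34 for Per3, 2.72 ± 0.25 for Cry1 and 0.76 ± 0.16 for Cry2 (SE). On MCD it was 3.40 ± 0.46, 3.38 ± 0.48, 5.17 ± 0.34, 3.66 ± 0.25 and 0.89 ± 0.16 in the same order. Of the 3611 genes called rhythmic on control, 16 had a wider range than Per3, 40 than Per1, 96 than Per2, 126 than Cry1 and 1505 than Cry2, and the median range was 0.66. Without library a the control ranges were 3.76 for Per1, 2.95 for Per2, 4.54 for Per3, 2.51 for Cry1 and 0.82 for Cry2. The 24 h component took 58.9% of the spread among the 6 time means of Cry2 on control and 73.3% on MCD, 78.3% and 89.7% for Per1, and 91.2% or more for Per2, Per3 and Cry1.

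In SCN all 5 genes were again called rhythmic on control, where 15.1% of 15759 genes were called, and on MCD, where 16.1% were called (edgeR quasi-likelihood test). Adjusted p values were 3.33e-10 or smaller on control and 4.21e-09 or smaller on MCD for Per1, Per2, Per3 and Cry1. For Cry2 they were 3.21e-05 on control and 0.0495 on MCD. That last call was lost when any of 29 of the 36 SCN libraries was left out, with adjusted p values up to 0.223 without male 1 of the MCD group at CT8 (edgeR). It was also lost with DESeq2 size factors (0.0519), library totals (0.0689), no sex term (0.0537) or exon-bin sums (0.127), and without each replicate number (0.0666 to 0.375).

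**Figure D2:**
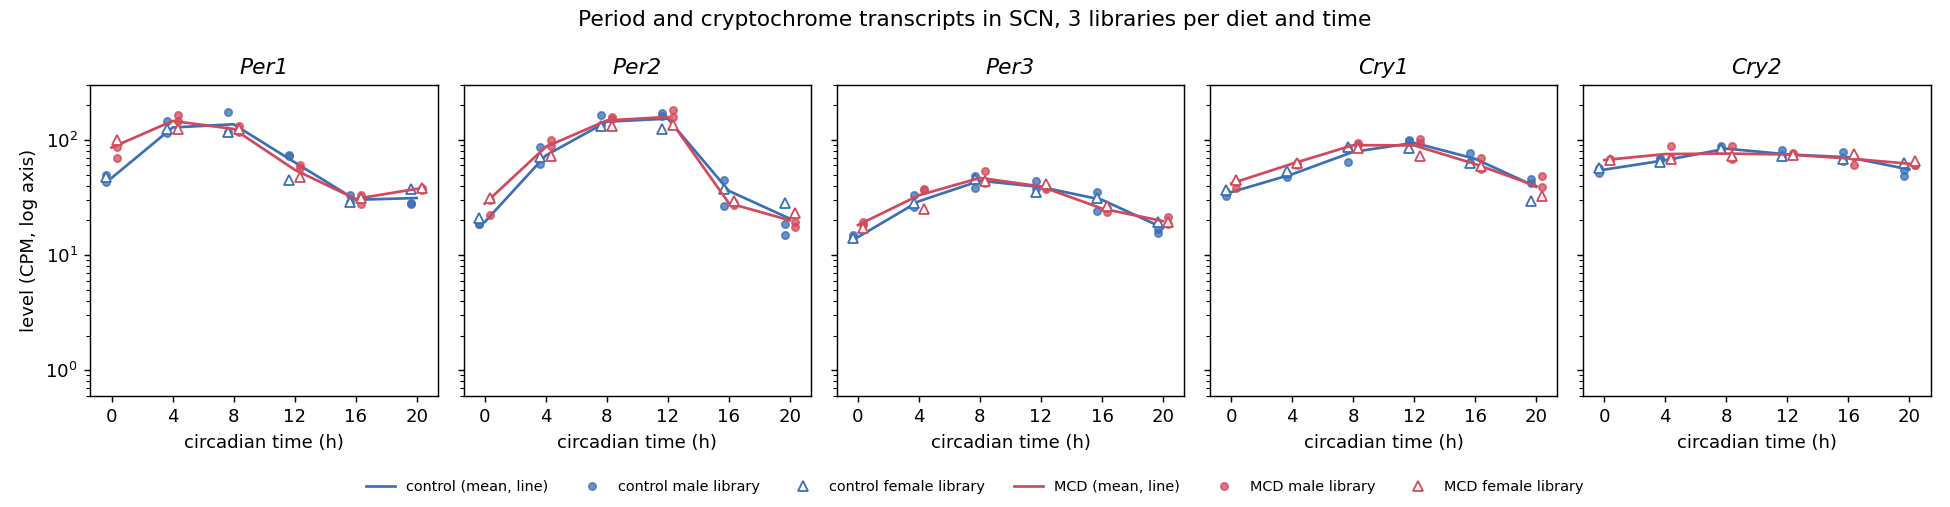
Levels of the 5 genes in SCN (CPM, log axis) against circadian time in h, drawn as for liver with each library as a point and group means as lines. Per1 peaks first and Cry1 last, and Per1 at CT0 is at 69.0 CPM or more in every MCD library and below 50 CPM in every control library.

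Per1 led the other members in SCN. On control it stood at 46.7 ± 3.19, 128 ± 16.3, 137 ± 33.6, 63.9 ± 16.3, 30.2 ± 2.38 and 31.3 ± 5.57 CPM at CT0 to CT20, and on MCD at 85.7 ± 15.9, 146 ± 20.3, 124 ± 7.91, 55.0 ± 6.75, 30.7 ± 2.77 and 37.6 ± 0.705 CPM. The control order was CT8, CT4, CT12, CT0, CT20 and CT16, free of overlap at CT4/CT12 and CT0/CT20, and the MCD order was CT4, CT8, CT0, CT12, CT20 and CT16, free of overlap at CT8/CT0, CT0/CT12, CT12/CT20 and CT20/CT16. The highest mean fell at CT8 on control and at CT4 on MCD, but on each diet the libraries of these times overlapped.

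Per2 had the widest range of the 5 in SCN. On control it stood at 19.4 ± 1.39, 73.2 ± 12.2, 144 ± 16.9, 153 ± 24.5, 36.1 ± 9.11 and 20.7 ± 7.06 CPM at CT0 to CT20, and on MCD at 28.0 ± 4.79, 86.9 ± 13.7, 147 ± 12.7, 158 ± 22.2, 28.2 ± 1.07 and 20.0 ± 2.99 CPM. The control order was CT12, CT8, CT4, CT16, CT20 and CT0 and the MCD order CT12, CT8, CT4, CT16, CT0 and CT20, both free of overlap at CT8/CT4 and CT4/CT16. Per3 stood at 14.3 ± 0.606, 29.3 ± 3.66, 44.2 ± 5.25, 39.0 ± 4.11, 30.2 ± 5.90 and 17.2 ± 1.86 CPM on control and at 18.2 ± 1.10, 33.0 ± 6.74, 46.8 ± 6.11, 39.4 ± 2.25, 25.3 ± 1.69 and 19.7 ± 1.47 CPM on MCD. Its control order was CT8, CT12, CT16, CT4, CT20 and CT0, free of overlap at CT4/CT20 and CT20/CT0, and its MCD order CT8, CT12, CT4, CT16, CT20 and CT0, free of overlap at CT8/CT12, CT12/CT4 and CT16/CT20.

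Cry1 in SCN was highest at CT12 on control and at CT8 on MCD, with overlap between these times. Its levels were 35.1 ± 2.09, 50.3 ± 2.95, 78.7 ± 12.4, 94.3 ± 7.98, 68.5 ± 8.00 and 39.1 ± 8.51 CPM on control. On MCD they were 41.8 ± 3.24, 62.1 ± 1.29, 89.9 ± 5.22, 89.5 ± 15.7, 61.7 ± 7.44 and 39.8 ± 7.90 CPM at CT0 to CT20. The control order was CT12, CT8, CT16, CT4, CT20 and CT0, free of overlap at CT16/CT4 and CT4/CT20, and the MCD order CT8, CT12, CT4, CT16, CT0 and CT20, free of overlap at CT12/CT4 and CT16/CT0. Cry2 was the flattest, at 55.2 ± 3.26, 66.6 ± 2.99, 83.9 ± 3.57, 74.8 ± 5.62, 70.7 ± 6.29 and 55.3 ± 6.70 CPM on control, with MCD levels of 66.8 ± 0.731, 75.3 ± 11.1, 76.0 ± 10.2, 74.7 ± 2.27, 69.0 ± 7.42 and 62.1 ± 2.59 CPM. Its control order was CT8, CT12, CT16, CT4, CT20 and CT0, free of overlap at CT4/CT20, and its MCD order CT8, CT4, CT12, CT16, CT0 and CT20, free of overlap at CT0/CT20.

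Fitted log2 ranges in SCN were 2.44 ± 0.14 for Per1, 3.42 ± 0.16 for Per2, 1.61 ± 0.12 for Per3, 1.47 ± 0.12 for Cry1 and 0.60 ± 0.086 for Cry2 on control (SE). On MCD they were 2.37 ± 0.14, 3.33 ± 0.16, 1.39 ± 0.12, 1.32 ± 0.12 and 0.29 ± 0.086 in the same order. Of the 2378 genes called rhythmic on control, 23 had a wider range than Per2, 49 than Per1, 139 than Per3, 188 than Cry1 and 955 than Cry2. The 24 h component took at least 92.8% of the spread among the time means of every member on either diet.

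Peak times, taken from the 24 h component of log2 CPM with limma, put Cry1 last in both tissues. In liver on control the order was Per3 at CT12.0 ± 0.301 h, Per1 at CT13.3 ± 0.468 h, Cry2 at CT13.5 ± 0.790 h, Per2 at CT14.4 ± 0.623 h and Cry1 at CT18.2 ± 0.345 h (SE). Neighbours from Per1 to Per2 lay closer than the sum of their SEs, while Cry1 followed Per2 by 3.79 h. In SCN on control the order was Per1 at CT6.45 ± 0.213 h, Per2 at CT9.27 ± 0.177 h, Cry2 at CT9.99 ± 0.546 h, Per3 at CT10.1 ± 0.281 h and Cry1 at CT11.1 ± 0.300 h. There Per1 preceded Per2 by 2.81 h, Per2 and Cry2, and Cry2 and Per3, lay closer than the sum of their SEs, and Cry1 followed Per3 by 1.01 h, more than that sum (0.58 h). The 5 peaks spanned 6.25 h in liver and 4.67 h in SCN on control, and 7.31 h and 4.83 h on MCD.

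Every member peaked later in liver than in SCN, by amounts that ranged widely. On control the delay was 7.10 h for Cry1 (95% interval 6.16 to 8.04, adjusted p = 1.66e-12), 6.86 h for Per1 (5.80 to 7.92, 4.51e-11) and 5.16 h for Per2 (3.83 to 6.50, 1.98e-07). It was 3.48 h for Cry2 (1.51 to 5.45, 0.00246) and 1.86 h for Per3 (1.01 to 2.71, 3.12e-04). All 5 were called, as were 66.8% of the 618 genes rhythmic on control in both tissues. Because the rhythm calls were lost there, the control delay of Cry2 was not tested without any of the 3 replicate numbers (2.97 to 3.76 h) or with exon-bin sums (3.50 h), and that of Per2 not without number 1 (4.87 h). The interval for Per3 lay wholly below those for Cry1, Per1 and Per2. On MCD the delays were 7.82 h for Cry1, 5.62 h for Per1, 4.99 h for Cry2, 4.17 h for Per2 and 1.16 h for Per3, again with all 5 called (adjusted p from 4.70e-14 for Cry1 to 0.0142 for Per3) against 72.7% of 889 genes. On MCD the delay of Per3 lost its call without the libraries numbered 1 (0.98 h, adjusted p = 0.113), without those numbered 2 (0.69 h, 0.259) and with the low kind of liver library described below alone (1.12 h, 0.0675). Without library a all 5 delays were called on both diets, and on control that of Cry2 was 2.46 h and that of Per3 1.61 h. Cry2 on MCD was no longer rhythmic in SCN, and so not tested, when any of the same 29 SCN libraries was left out. These tests treat the liver and SCN libraries as independent, since the labels do not say which came from the same mouse.

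**Figure D3:**
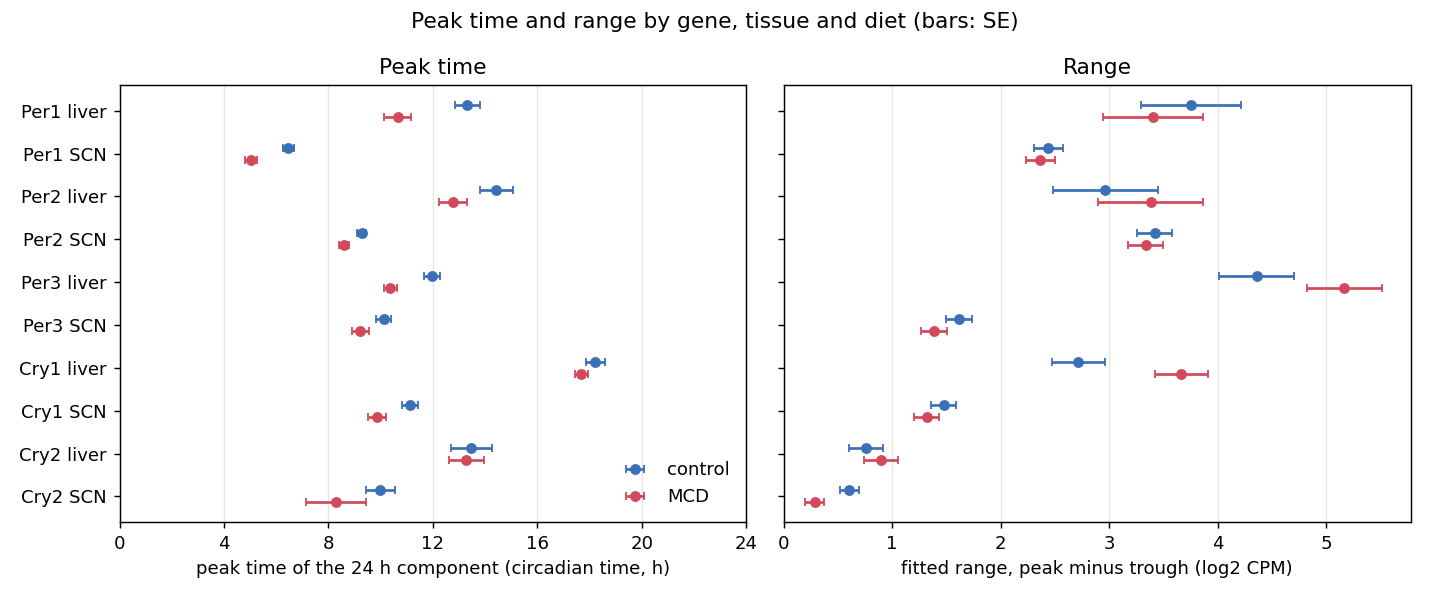
Peak time of the 24 h component (left, circadian time in h) and fitted range (right, log2 CPM) of each gene in each tissue, control in blue and MCD in red, with SE as bars. MCD points lie to the left of control points in the peak panel for every gene and tissue, and liver Per1 moves from 13.3 to 10.7 h.

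On MCD the fitted peak of every member lay earlier than on control in both tissues, with 2 of 5 shifts called in liver and 1 of 5 in SCN. In liver Per1 moved by -2.66 h (95% interval -4.09 to -1.22, adjusted p = 0.00529) and Per3 by -1.60 h (95% interval -2.41 to -0.79, adjusted p = 0.00305). The values that did not pass were -1.66 h (95% interval -3.37 to 0.048, adjusted p = 0.119) for Per2, -0.54 h (95% interval -1.43 to 0.34, adjusted p = 0.326) for Cry1 and -0.19 h (95% interval -2.32 to 1.94, adjusted p = 0.905) for Cry2. On MCD the liver peaks stood at CT10.4 ± 0.254 h for Per3, CT10.7 ± 0.517 h for Per1, CT12.8 ± 0.546 h for Per2, CT13.3 ± 0.672 h for Cry2 and CT17.7 ± 0.256 h for Cry1, so that Per1, which followed Per3 by more than the sum of their SEs on control, lay within it on MCD. Adjustment ran over the 2271 genes rhythmic on both diets, of which 34.4% were called, 704 earlier and 77 later. The median shift of all 2271 was -1.74 h, which lay within the intervals of Per1, Per2, Per3 and Cry2 and outside that of Cry1. Without library a, Per1 moved by -2.62 h (adjusted p = 0.00846) and Per3 by -1.36 h (0.00457). The other values were then -1.35 h for Per2, -0.39 h for Cry1 and 0.78 h for Cry2, the last with its sign turned.

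The liver shifts depended on which libraries were included. Without all libraries numbered 2 neither Per1 (-2.11 h, adjusted p = 0.0550) nor Per3 (-1.40 h, 0.0629) was called, and without all numbered 1 Per3 was not (-1.44 h, 0.0581). Leaving out the control female at CT4, CT8 or CT20 made the shift of Per2 -1.87, -2.14 or -2.13 h, each called (adjusted p = 0.0400, 0.0405 and 0.0453). With all 12 females left out 4 of 5 members were called, Per2 at -2.37 h (adjusted p = 0.00656) and Cry1 at -1.12 h (0.0259) joining. Sex differences in peak time were not tested, with 1 female per group.

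In SCN Per1 moved by -1.42 h (95% interval -2.05 to -0.80, adjusted p = 0.0127). The values that did not pass were -0.67 h (95% interval -1.19 to -0.15, adjusted p = 0.140) for Per2, -0.90 h (95% interval -1.78 to -0.020, adjusted p = 0.243) for Per3, -1.26 h (95% interval -2.18 to -0.34, adjusted p = 0.123) for Cry1 and -1.70 h (95% interval -4.31 to 0.91, adjusted p = 0.485) for Cry2, and 4 of the 5, and 308 of the 1556 genes tested, had an unadjusted p under 0.05. On MCD the SCN peaks stood at CT5.03 ± 0.220 h for Per1, CT8.29 ± 1.16 h for Cry2, CT8.59 ± 0.182 h for Per2, CT9.21 ± 0.326 h for Per3 and CT9.86 ± 0.336 h for Cry1. The shift of Per1 in SCN lost its call when all libraries numbered 1 or all numbered 2 were left out (adjusted p = 0.0859 and 0.121). Of the 1556 genes rhythmic on both diets 1.93% were called, 29 earlier and 1 later, and their median shift was -0.97 h. The interval of every member, Per1 among them, includes that median. The shift in liver minus that in SCN was -1.24 h for Per1 (95% interval -2.81 to 0.33), -0.99 h for Per2 (-2.77 to 0.80), -0.70 h for Per3 (-1.90 to 0.50), 0.72 h for Cry1 (-0.56 to 2.00) and 1.51 h for Cry2 (-1.87 to 4.89). Every one of these 5 intervals includes 0.

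Ranges did not pass the test of a diet difference in any member. In liver the MCD minus control range was 0.95 log2 for Cry1 (95% interval 0.23 to 1.66, adjusted p = 0.263), 0.81 for Per3 (-0.19 to 1.81), 0.42 for Per2, 0.13 for Cry2 and -0.35 for Per1. Of 2271 genes 0.308% were called. Leaving out library a gave 1.14 for Cry1 (adjusted p = 0.0813). In SCN all 5 differences were negative, from -0.32 for Cry2 (-0.57 to -0.07, adjusted p = 1.00) to -0.073 for Per1, and 0% of 1556 genes were called. By unadjusted p under 0.05, limma counted Cry1 in liver and Cry2 in SCN, 1 member in each tissue, as it did 221 of the 2271 genes in liver and 28 of the 1556 in SCN.

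The joint test of range and peak time, the difference of the cosine and sine components between the diets, called 0 of 5 members in liver by edgeR, where 4.87% of genes were called. Per1 (adjusted p = 0.0540) and Per3 (0.0579) came closest, and the unadjusted p was under 0.05 for 3 members and for 4030 of the 20249 genes. Without library a 0 were called, with adjusted p of 0.0707 for Per1, 0.0764 for Per3 and 0.0539 for Cry1. With all libraries DESeq2 called 2 members, Per1 and Per3, and limma-voom 1, Per3. Leaving out the control female at CT4 raised the edgeR count to 3, and leaving out any of 4 other libraries (the control females at CT8 and CT16, the MCD female at CT4 and MCD male 2 at CT20) raised it to 1. In SCN edgeR called 0 of 5, against 0.0127% of genes, although the unadjusted p was under 0.05 for all 5, as for 596 of the 15759 genes. DESeq2 called 1, Per1, limma-voom 0, and edgeR called 1 without the control female at CT12.

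Averaged over the 6 times, Per1 was higher and Per3 and Cry2 were lower in liver on MCD, so 3 of 5 members were called. Over all liver genes 46.6% were called, so the share among the members says little of them in particular. The log2 difference, MCD minus control, was 0.66 ± 0.23 for Per1 (SE, edgeR adjusted p = 0.0217), with higher means at 5 of 6 times. By time it was 0.28, 2.75, 1.29, 0.0059, 0.34 and -0.69 at CT0 to CT20, so the rise was largest at CT4 and CT8 and not even over the day. At CT8 Per1 stood at 24.9 and 35.6 CPM in the males and 29.996 CPM in the female on control and at 55.8 and 84.3 CPM in the males and 83.9 CPM in the female on MCD, with every MCD library above every control library, although that time alone was not called (adjusted p = 0.328). The average log2 difference was -0.64 ± 0.18 for Per3 (0.00399), with lower means at 4 of 6 times, and -0.38 ± 0.08 for Cry2 (2.35e-04), with lower means at 6 of 6 times. Cry2 at CT12 stood at 58.0 and 55.4 CPM in the males and 51.9 CPM in the female on control and at 38.1 and 42.9 CPM in the males and 40.8 CPM in the female on MCD. At CT20 it stood at 57.8 and 56.1 CPM in the males and 50.7 CPM in the female on control and at 37.6 and 41.2 CPM in the males and 35.2 CPM in the female on MCD. At CT4, CT12, CT16 and CT20 every MCD library was below every control library for Cry2, while at CT0 and CT8 the diets overlapped. Here and below, lack of overlap is a description, as the share of all genes free of overlap between the diets is not given. Per2 at -0.26 ± 0.23 (0.38) and Cry1 at -0.16 ± 0.12 (0.295) did not pass. With counts summed from exon bins in place of the gene table, without 2 control libraries at CT0 whose files end early, Per1 lost its call (0.60, adjusted p = 0.101). Per1 also lost it without the libraries numbered 1 (0.52, adjusted p = 0.220) or 2 (0.53, 0.0994), and Per3 without the females, all numbered 3 (-0.35, 0.0880). The median of the members was -0.26 and that of all 20249 genes 0.017.

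The scaling between libraries matters for these averages. The mean TMM factor was 0.917 for control and 1.10 for MCD libraries. With library totals in place of TMM the median of all liver genes moved to 0.27 and the share of higher calls among all calls from 54.4% to 87.3%. Under that scaling only Per1 was called (0.92, adjusted p = 0.00189), Per3 stood at -0.38 (0.0548) and Cry2 at -0.12 (0.118), and Cry1 changed sign to 0.095. Relative to the moved median the differences were 0.65 for Per1, -0.28 for Per2, -0.65 for Per3, -0.18 for Cry1 and -0.39 for Cry2. In bulk tissue, fewer cells that express a gene and less RNA per cell cannot be told apart.

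Without library a the same 3 members were called, Per1 at 0.64 (adjusted p = 0.0332), Per3 at -0.72 (6.89e-04) and Cry2 at -0.43 (1.40e-06). Liver libraries also fell into 2 kinds by mt-Nd6, a mitochondrial transcript, at 32.8 to 133 CPM in 21 and 379.5 to 1038 CPM in 15. Of the low kind 8 libraries were control and 13 MCD, of the high kind 10 and 5. With this kind as a term in the model the 3 calls held. Within the low kind the differences were 0.26 for Per1, -0.73 for Per3 and -0.31 for Cry2 and 0 members were called. Within the high kind they were 0.70, -0.76 and -0.50, and 1 member, Cry2, was called. The summed level of 6 macrophage markers was 358 ± 104 CPM on control and 470 ± 109 CPM on MCD, and that of 5 red cell markers 275 ± 83.5 and 151 ± 43.5 CPM (SD, n = 18 each). The ranges were 248 to 592 and 327 to 727 CPM for the macrophage list and 130 to 453 and 93.7 to 273 CPM for the red cell list, and all markers of both lists were detected. Their part in the differences was not tested.

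**Figure D4:**
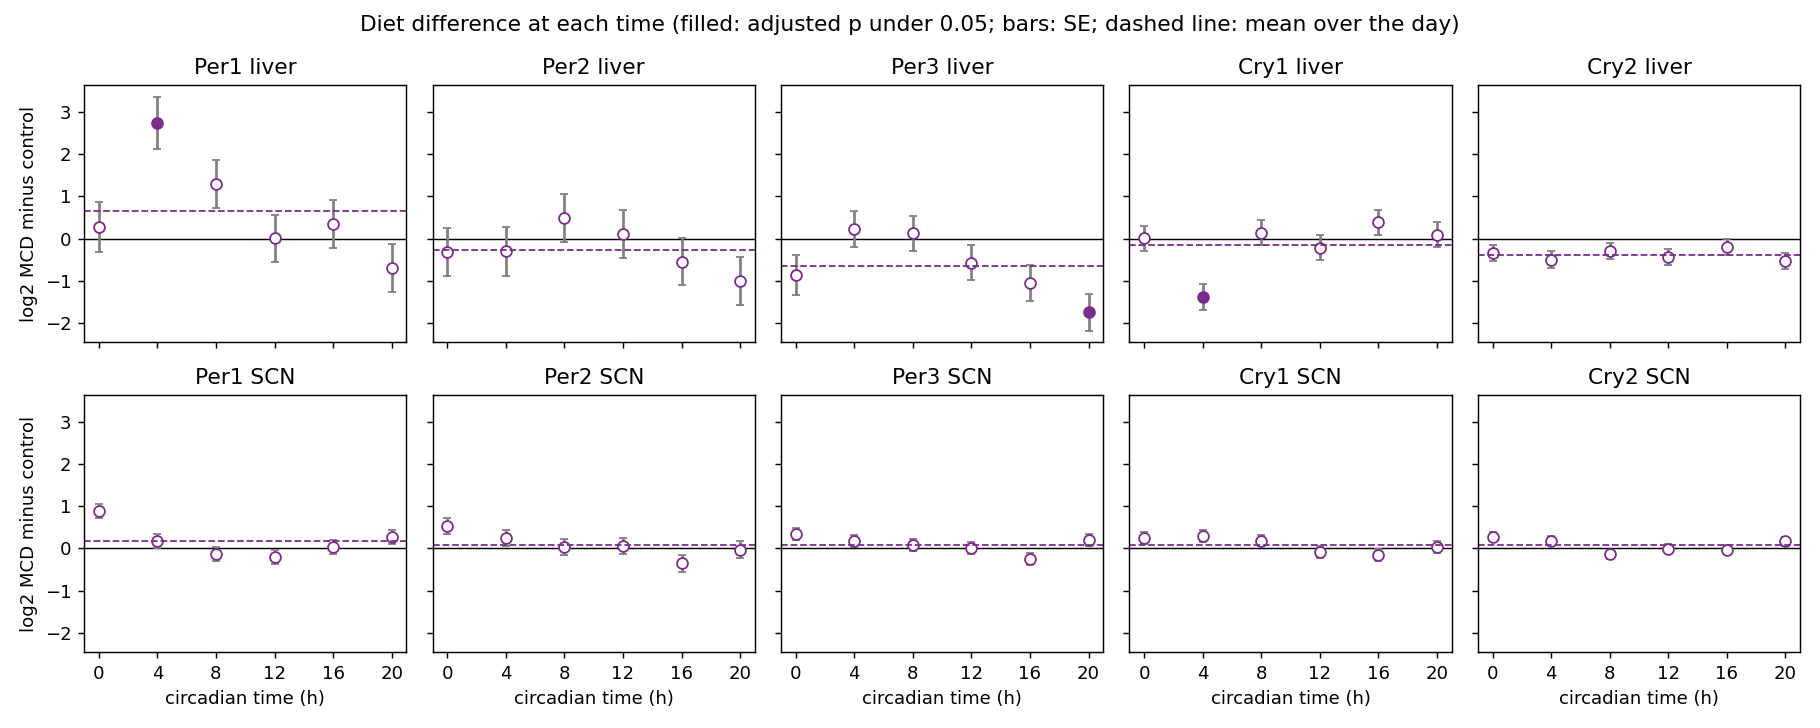
Log2 difference, MCD minus control, of each gene at each circadian time in h, liver in the upper row and SCN in the lower row, with SE as bars, filled points past an adjusted p of 0.05 and the mean over the day as a dashed line. Filled points are liver Per1 at CT4 (2.75), liver Cry1 at CT4 (-1.38) and liver Per3 at CT20 (-1.74).

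At single times 3 of the 30 pairs of member and time were called in liver, 2 of them at CT4. Per1 at CT4 stood at 2.36 and 2.17 CPM in the males and 13.4 CPM in the female on control, and at 36.8 and 50.8 CPM in the males and 15.3 CPM in the female on MCD. The 2 diets did not overlap, and on both the female differed from the males, upwards on control and downwards on MCD. The log2 difference was 2.75 ± 0.61 (SE, adjusted p = 0.00327). Cry1 at CT4 stood at 14.9 and 12.1 CPM in the males and 7.25 CPM in the female on control and at 3.04 and 5.63 CPM in the males and 4.64 CPM in the female on MCD. Every MCD library was below every control library, and the difference was -1.38 ± 0.31 (SE, adjusted p = 0.00316). Of all liver genes 18.2% were called at CT4.

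Per3 at CT20 stood at 16.6 and 11.5 CPM in the males and 17.4 CPM in the female on control and at 5.23 and 3.92 CPM in the males and 4.26 CPM in the female on MCD, again without overlap. The difference was -1.74 ± 0.44 (SE, adjusted p = 0.0115), where 11.3% of genes were called. Without the MCD female at CT20 it was -1.61 and lost the call (adjusted p = 0.0550). No member was called by edgeR at CT0 (12.6% of genes), CT8 (1.3%), CT12 (15.2%) or CT16 (12.5%). Over all times 8 of the 30 pairs had an unadjusted p under 0.05. Of all 20249 genes 5210, 6333, 2550, 6029, 5587 and 5356 had one at CT0 to CT20, so the count among the members is near that of all genes.

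The count of single times depended on library a. Without it 7 of 30 pairs passed, the 3 above and Cry2 at CT4 (-0.50), CT8 (-0.58), CT12 (-0.44) and CT20 (-0.54), with adjusted p between 0.0129 and 0.0332 for Cry2. Among all genes the share called then rose as well, from 18.2% to 20.6% at CT4, from 1.3% to 5.86% at CT8, from 15.2% to 18.4% at CT12 and from 11.3% to 13.8% at CT20. The count was also 6 without library b of the same group and 5 without the control female at CT4. With all 36 libraries DESeq2 called 5 pairs and limma-voom 3. All 3 calls were lost without the libraries numbered 1 (adjusted p = 0.192 for Per1 at CT4, 0.247 for Cry1 at CT4 and 0.170 for Per3 at CT20) and without those numbered 2 (0.0702, 0.0567 and 0.126), with fewer libraries at those times. The differences kept their direction, at 2.18 and 2.01 for Per1, -0.92 and -1.57 for Cry1 and -1.79 and -1.83 for Per3. Without the females, all numbered 3, the 3 calls held, at 4.27 for Per1, -1.65 for Cry1 and -1.64 for Per3. Per3 at CT4 was then called as well (1.42, edgeR adjusted p = 0.0271).

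In SCN no member was called for the average diet difference (edgeR, 0 of 5, 1 with an unadjusted p under 0.05, as had 746 of all genes, and 0 by DESeq2 and by limma-voom), where 0.0635% of genes were called. The log2 differences were 0.17 ± 0.07 for Per1 (SE, adjusted p = 0.836), 0.08 ± 0.08 for Per2, 0.09 ± 0.06 for Per3, 0.09 ± 0.06 for Cry1 and 0.07 ± 0.04 for Cry2. All 5 were above 0, and the median of all 15759 genes was 0.003. The summed level of 5 red cell markers in SCN was 407 ± 424 CPM on control and 141 ± 98.5 CPM on MCD (SD, n = 18 each), and its part in these values was not tested.

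At single times 0 of 30 pairs were called in SCN by edgeR. The shares of all genes called were 0.00635% at CT0, 0.0444% at CT4, 0% at CT8, 0% at CT12, 0.00635% at CT16 and 0.00635% at CT20. Per1 at CT0 came closest. It stood at 49.3 and 43.2 CPM in the males and 47.6 CPM in the female on control and at 87.4 and 69.0 CPM in the males and 101 CPM in the female on MCD, so that every MCD library was above every control library, and the difference was 0.88 ± 0.17 (SE, adjusted p = 0.0602). DESeq2 called it (0.88, adjusted p = 2.77e-04) and limma-voom did not, and edgeR called it when any of 5 single libraries was left out (MCD male 2 at CT0, the MCD female at CT4, control library a at CT8 and the control females at CT12 and CT20; adjusted p from 0.0174 to 0.0469). Over all 36 libraries left out in turn the difference ran from 0.70 to 1.03 and the adjusted p from 0.0174 to 0.767. By unadjusted p, 5 pairs were under 0.05, and 4 of them were at CT0, where 747 of the 15759 genes had one and Per2 differed by 0.53, Per3 by 0.35 and Cry2 by 0.28. The remaining pair was Cry1 at CT4 (0.30), where 859 genes had one.

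The average diet difference was itself compared between the tissues in a model of all 72 libraries. It was lower in liver than in SCN for Per3 (liver minus SCN -0.74 ± 0.19 log2, SE, edgeR adjusted p = 0.00147) and for Cry2 (-0.46 ± 0.09, 8.55e-05). It did not pass for Per1 (0.49 ± 0.24, 0.113), Cry1 (-0.25 ± 0.14, 0.15) or Per2 (-0.35 ± 0.25, 0.283). Of the 14491 genes tested 34.7% were called. Per1 was called when any of 4 liver libraries was left out (the control females at CT4 and CT20, control male 2 at CT16 and the MCD female at CT4), with values from 0.57 to 0.67. It was also called with library totals as scaling (0.64, adjusted p = 0.0296) and without all females (0.86, 0.00279). Without library a the calls were again Per3 (-0.81, adjusted p = 1.59e-04) and Cry2 (-0.50, 6.24e-07).

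No sex difference in the members passed the test. The female minus male difference in level was called for 0 of 5 members in liver (9.44% of genes called) and 0 of 5 in SCN (9.89%), with no unadjusted p under 0.05 in either tissue. The diet difference in females minus that in males was called for 0 of 5 members in liver (1.77% of genes) and 0 of 5 in SCN (0%). Its liver values in log2 were -0.85 ± 0.49 for Per1, -0.94 ± 0.48 for Per2 and -0.82 ± 0.35 for Per3 (SE). For Cry1 and Cry2 they were -0.088 ± 0.27 and -0.029 ± 0.17. The median of the members was -0.82 and that of all liver genes -0.036. With 1 female per group the SEs are wide, so the lack of calls does not show that the sexes respond alike. In liver 1 member, Per3, had an unadjusted p under 0.05, as had 2483 of the 20249 genes, and in SCN none did. DESeq2 and limma-voom also called 0 members in these 4 comparisons, and edgeR called 0 in both liver comparisons without library a.

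The other genes of the clock were taken from 5 lists and described by counts. They were activators (CLOCK, BMAL1, listed as Arntl, and relatives), the second loop of REV-ERB and ROR receptors, the repressors Bhlhe40, Bhlhe41 and Ciart, the bZIP output factors and the genes of protein turnover and partners. Of 25 listed genes tested in liver, 6 were higher and 2 lower on MCD, where 46.6% of all genes were called, and the median difference was 0.04, against 0.017 for all genes. With library totals 14 were higher and 0 lower, as were 10633 and 1540 of all genes, and without library a 5 were higher and 2 lower. Among those called, Csnk1e, a kinase that phosphorylates PER proteins, differed by 0.65 (adjusted p = 2.47e-08), Ciart, which encodes the repressor CHRONO, by 0.80 (0.00371), Nr1d2, which encodes REV-ERB beta, by 0.29 (0.0329), and the PAR bZIP factor Tef by -0.42 (3.81e-04). With library totals Tef was at -0.16 and not called, and without library a Nr1d2 was not called (0.26, adjusted p = 0.0577).

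Of these 25 genes 12 were rhythmic on both diets in liver, as were 2271 of all 20249, and 7 of them peaked earlier on MCD and 0 later, where 34.4% of all genes rhythmic on both diets were called and their median shift was -1.74 h. In SCN 0 of 26 differed by diet on average (0.0635% of all genes), 15 were rhythmic on both diets (1556 of all 15759), and 1 peaked earlier (1.93% of all genes rhythmic on both diets called in either direction), Bhlhe41 by -1.14 h (adjusted p = 0.0324), named after its value was seen. These comparisons share their control libraries with those of the members. Arntl, which encodes BMAL1, was named outside the rule and peaked at CT21.6 on control and CT20.3 on MCD in liver, and at CT16.5 and CT15.6 in SCN, later than all 5 members in each case.

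The genes whose 12 group means (2 diets by 6 times) in log2 CPM were most like a member's differed between the tissues. In liver they were Usp2 (Pearson r = 0.96), Klf13 and Noct for Per1, Tspan4 (0.95), Nmrk1 and Akr1c19 for Per2, and Tef (0.99), A930033H14Rik and Ccbe1 for Per3. They were Polr1h (0.96), Mrm2 and Ahctf1 for Cry1, and Psd3 (0.95), Klf15 and Ubr2 for Cry2. In SCN they were Coq10b (0.99), Rcan1 and Nr1d2 for Per1, Pgm2l1 (0.99), Armcx3 and Kcnc2 for Per2, and Fam126b (0.98), Tollip and Impact for Per3. They were Ptprn (0.96), Epb41l5 and Kpna1 for Cry1, and Casd1 (0.96), Glyr1 and Rab3gap1 for Cry2. No gene was named in both tissues for the same member. The points share their libraries and depth, and 13839 genes in liver and 15721 in SCN were compared for each member, so the values are a description.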

How the data were processed

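The authors deposited raw read counts per gene, 1 table per tissue, and per exon bin, 1 file per library. The submitters' processing notes name Trimmomatic, HISAT2, StringTie, DESeq2 and build GRCm39, with no versions or roles, and the counting tool is not given in the sources used here. The extraction protocol in the labels describes poly(A) libraries made with a kit that keeps the strand. The members and the gene lists were chosen with earlier results of these data known.

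Columns were matched to samples by tissue, diet, time and replicate in their names. In each table the 2 male control libraries at CT8 share a name and were used as replicates without a number. Counts as deposited were filtered with filterByExpr (minimum count 10), scaled by TMM and fitted with edgeR 4.0.16 (quasi-likelihood F test, robust) in R 4.3.3, with sex as a covariate beside 12 means, 1 for each time on each diet. Benjamini-Hochberg adjustment ran over all genes tested, with a threshold of 0.05. The rhythm test asks for a 24 h cosine wave of any phase in the means of the 6 times. Peak time and range came from limma 3.58.1 (trend, robust) on log2 CPM with a prior count of 2, with delta-method SEs and intervals of 95%, and were tested over genes called rhythmic on both diets. The tissue comparison used 1 edgeR model of 72 libraries with sex within tissue. Level comparisons between genes divide by the exon length in GENCODE M21.

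No 2 replicates held the same values (lowest chi-square per degree of freedom 24.1). On simulated liver counts of 19862 genes with 200 changed, 100% of 2-fold diet changes, 97.3% of rhythms and 96% of 4 h shifts were recovered. On simulated SCN counts of 15759 genes these shares were 96%, 99.3% and 98%. The simulated rhythms had a log2 range of 2, wider than that of Cry2, and the simulated shifts were larger than any member's with all libraries. Recovery of smaller ranges or shifts was not simulated, so these shares do not apply to the shifts that were not called.

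Alternatives were DESeq2 1.42.0, limma-voom, other scalings, no filter, no sex term, a replicate block, each replicate number and each library left out, another prior count, exon-bin sums, and, in liver, terms or subsets for the kind of library. Exon-bin files of 2 libraries end early and were left out of the exon-bin sums. Besides the members, the text names per clock list the gene called with the smallest adjusted p, and per member the 3 genes of at least 1 CPM with the highest Pearson r over 12 group means. Csnk1e, Ciart, Nr1d2 and Tef follow from that rule, and Arntl and Bhlhe41 were named outside it. The positions come from build GRCm38, not from the build of the counts, and were matched by gene ID.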

Additional observations from a re-analysis of the deposited data

Results flagged for a closer look

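The difference between the diets itself differed between the tissues for 2 of the 5 members. For Per3 the MCD minus control difference was -0.64 log2 in liver and 0.09 in SCN, and the liver minus SCN value was -0.74 (SE 0.19, edgeR adjusted p = 0.00147). Per3 was lower on MCD at 4 of 6 times in liver and higher at 5 of 6 in SCN. For Cry2 the differences were -0.38 and 0.07 log2, and the liver minus SCN value was -0.46 (SE 0.09, adjusted p = 8.55e-05). Cry2 was lower on MCD at 6 of 6 times in liver and higher at 3 of 6 in SCN. In SCN alone neither gene was called for the average diet difference. The tissue comparison called 34.7% of all genes compared, so these 2 calls say little of the members in particular. Both calls held under every alternative run for this test. With library totals as scaling, which moved the median of all liver genes to 0.27, the liver difference alone was -0.12 for Cry2 (adjusted p = 0.118) and -0.38 for Per3 (0.0548), neither called, and the liver minus SCN values were -0.30 (0.00390) for Cry2 and -0.58 (0.00799) for Per3.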

How the results depend on the processing

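Counts of called members are given here, out of 5 unless stated. In liver the diet count of 3 became 1 with library totals as scaling, 0 within the low kind of library and 1 within the high kind, and 2 without any replicate number. The rhythm count became 3 to 4 on control and 4 to 5 on MCD without a replicate number, 1 and 3 on control within the low and high kind, and 0 on MCD within the high kind, whose 5 MCD libraries gave log2 ranges of 3.47 for Per1, 2.68 for Per2, 5.80 for Per3, 4.12 for Cry1 and 1.38 for Cry2. The rhythm difference count of 0 became 1 with DESeq2 size factors, with limma-voom or with a term for the kind of library, 2 with DESeq2, 0 to 2 without a replicate number and 0 to 3 without single libraries. The peak count of 2 became 0 to 4 without a replicate number. Within the low and the high kind it was 0 because Per1 and Per3 were not called rhythmic on both diets there and so not tested, with shifts of -2.004 and -4.39 h for Per1 and -1.41 and -1.28 h for Per3. The count of single times, 3 of 30, became 5 with DESeq2, 7 without library a, 0 to 4 without a replicate number and 2 to 7 without single libraries. In SCN the count of rhythm differences became 1 with DESeq2 and 0 to 1 without single libraries. The SCN peak count became 0 to 2 without a replicate number, and that of single times 1 with DESeq2, with DESeq2 size factors or with exon-bin sums, and 0 to 1 without single libraries. Per1 in SCN was the shift lost, at -1.46 h without replicate 1 and -1.27 h without replicate 2. The count of peaks later in liver became 3 to 4 on both diets without a replicate number, 1 and 3 on control within the low and high kind, and 0 on MCD within the high kind.

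Signs turned in values that had passed no test. In liver the diet difference of Cry1 was 0.095 with library totals and 0.15 within the low kind, and that of Per2 was -0.48 to 0.058 without a replicate number. The peak shift of Cry2 was 0.21 h with library totals, 0.78 h without library a and 0.82 h within the high kind, 0.052 h without replicate 2, and -1.24 to 0.78 h without single libraries. The range difference of Per2 was -1.02 within the high kind, -0.86 to 1.24 without a replicate number and -0.18 to 0.76 without single libraries, that of Per1 was -1.23 to 0.24 and that of Cry2 -0.061 to 0.29 without a replicate number. In SCN the peak shift of Cry2 was -2.54 to 0.10 h without a replicate number. The range difference of Per2 was 0.0013 without replicate 2 and -0.26 to 0.053 without single libraries, and that of Per1 -0.18 to 0.039 without single libraries. The causes were not tested.

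Same-numbered libraries did not deviate together in every pair (lowest correlation of deviations 0.070 in liver and -0.086 in SCN). In liver 4 of 5 pairs numbered 1, 3 of 5 numbered 2 and 6 of 6 numbered 3 exceeded 0.1, and in SCN 3 of 5, 1 of 5 and 4 of 6. Sex was left in the deviations, and same-numbered libraries are of the same sex. These correlations therefore cannot tell pairing from shared sex, and the main fits did not pair libraries by number. A replicate block in place of sex, without the 2 unnumbered control libraries at CT8 of each tissue, gave 1 liver rhythm difference, 1 liver range difference (Cry1, 1.44, adjusted p = 0.0328), 6 of 30 liver single times, 0 SCN peak shifts (Per1, -1.35 h, adjusted p = 0.0555) and 1 SCN single time, a tissue difference in the diet effect of Cry1 (-0.33, adjusted p = 0.0474), and SCN range differences of 0.023 for Per1 and 3.31e-04 for Per2. The other counts stayed within 1.5 times under the block. DESeq2 and limma-voom gave no peak times or ranges, and within a kind of library single times were not tested. The members rested on 53 counts or more in every library, and the part of depth or of group size in these counts was not tested.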
